A study of Mus musculus with 2 samples.

Results

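The genes of the cytosolic ribosomal proteins were described in the uterus of early pregnant mice with normal or repressed VEGF. Members were the genes of the deposited table whose symbol begins with Rpl or Rps followed by a number and at most 1 letter, together with Rplp0, Rplp1, Rplp2 and Rpsa where listed. This rule found 70 of 14678 genes, of which 41 encode proteins of the large (60S) subunit and 29 proteins of the small (40S) subunit. The rule used names only and no measured value. Both groups were double transgenic females (VEGFtetO/tetO/beta-AKtg/wt), littermates 9 to 10 weeks old, whose uteri were taken at gestation day (G) 2.5. Both carry tet operators in the Vegfa promoter and a tetR-Krab repressor driven by the beta-actin promoter, so that the repressor is not limited to the uterus. The Dox+ group ate doxycycline chow, which releases the repressor (VEGF-normal). The Dox- group was taken off it around weaning age, weeks before the uteri were collected (VEGF-repression). The groups therefore differ in doxycycline as well as in VEGF, and the effects of these cannot be told apart here. RNA of 3 uteri was pooled into 1 digital gene expression (DGE) library per group, so no difference between Dox+ and Dox- has a replicate check, and every interval given here covers counting error of the tags only.

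The ribosome translates mRNA. Its small subunit reads the mRNA, and its large subunit joins the amino acids and passes the growing chain out through an exit tunnel. Each ribosomal protein is present in 1 copy in most ribosomes, except the stalk proteins that recruit elongation factors, and surplus protein is degraded. Ribosomal protein mRNAs are among the most abundant of dividing and secreting cells. Many begin with a 5′ terminal run of pyrimidines (TOP), through which their translation is controlled by mTOR. In the uterus before implantation, ovarian steroids drive the growth of the epithelium and then of the stroma, and protein synthesis rises with it.

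DGE counts 1 short tag for each mRNA molecule, taken next to the restriction site nearest the poly(A) tail. In this design a count depends little on transcript length, but it depends on whether that tag belongs to 1 gene. The submitters' extraction protocol mentions fragmentation, so that these libraries follow the design was assumed. The table holds no tag sequences and the enzyme is not named in the sources used here, so the site was inferred from the genes that were counted. Of 22611 genes with a protein-coding GENCODE transcript, 475 have no CATG, and 8 of these (1.68%) were in the table. Of these 8, 1 had at least 200 copies over both libraries. Of the 860 genes without GATC, 122 were in the table. The tags next to the last CATG of the genes on which the results turn are given on NCBIM37 (mm9). They are printed 5′ to 3′ on the transcript, with the site in capitals. Counts were deposited per gene, so whether each rests on this tag alone was not tested. Another tag or transcript of a gene may contribute.
Rplp1: CATGggcttcggtctttttga
Rps19: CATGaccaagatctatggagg
Rpl24: CATGaaggtcgagctgtgcag
Rps28: CATGgatgacaccagccgctc
Rps4x: CATGgtgaaactac
Rpl4: CATGtggtgacaaacccttgt
The Rplp1 tag is in coding sequence on the minus strand (chr9:61761135-61761155) and also occurs in the predicted gene Gm10073. The Rps19 tag (chr7:25673350-25673370, plus strand, coding sequence) also occurs in the pseudogenes Rps19-ps1, Rps19-ps2 and Rps19-ps4 and at 8 genome positions in all. The Rps28 tag (chr17:33960241-33960261, minus strand, coding sequence) is shared with Gm3511 and occurs at 7 genome positions in all. The Rpl24 tag crosses an exon junction on chromosome 16 and also occurs uninterrupted at 3 genome positions. The Rpl4 tag lies in the 3′ UTR at 1 genome position (chr9:64026313-64026333, plus strand). In Rps4x the last CATG is 10 bases from the annotated end of the transcript (chrX:99380280-99380293, minus strand), so that the rest of its tag is not in the annotation. Each tag was searched in the other genes with a protein-coding transcript, and pseudogenes without such a transcript were not searched. Among the 66 members with at least 200 copies over both libraries, 36 had a tag found in no other gene searched. Another 27 had a tag that also occurs in another of these genes. By symbol, none of those other genes was itself in the table. For 2 members the tag runs past the transcript end, and Rpl41 had no transcript to match. Of the 63 full tags, 45 occur at more than 1 position in the genome and 17 at exactly 1. The transcript with the longest coding sequence was also tried for each gene. With it, 34 members had a tag in no other gene searched and 28 a shared one.

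Of 77 ribosomal proteins expected of a mouse ribosome under this naming, 69 were in the table. Rplp2, Rpl6, Rpl30, Rpl34, Rpl35a, Rps21, Rps23 and Rps26 were not analysed here. The remaining member, Rps27l, is a near-duplicate of Rps27 and was counted at 1704 copies in Dox+ and 1739 in Dox- (log2 ratio 0.06, 95% interval -0.03 to 0.16). The paralogs Rpl3l, Rpl10l and Rpl39l were not analysed here. Another 4 members had under 200 copies. Among them, Rpl21 had 35 and 25 copies and Rps15a 21 and 20 in Dox+ and Dox-, while Rps27 had 0 and 5, near the floor of 3 counts. The Rps27 tag occurs in 2 other genes.

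The ribosomal proteins took a large share of all tags, and that share was lower in Dox-. The 70 genes held 11.54% of clean tags in Dox+ (95% exact interval 11.51 to 11.56) and 9.59% in Dox- (9.56 to 9.61). The log2 ratio of these shares, Dox- over Dox+, was -0.27. The large subunit held 7.11% in Dox+ and 5.95% in Dox-, and the small subunit 4.42% and 3.64%, so that the ratio of large to small subunit tags was 1.61 in Dox+ and 1.63 in Dox-. All other genes of the table together held 62.6% of clean tags in both libraries. The table as a whole held 74.1% of 5985925 clean tags in Dox+ and 72.2% of 5844314 in Dox-. The rest of the tags were assigned to no gene of the table, and their content was not analysed here.

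Single members differed widely in level. Among the 66 members with at least 200 copies, the highest had 143 times the copies of the lowest in Dox+ and 67.2 times in Dox-. Their quartiles were 5644 and 13522.5 copies in Dox+. In the 100 genes with most copies there were 46 members in Dox+ and 44 in Dox-. Rplp1, an acidic stalk protein, ranked first among members in both libraries, with 49098 copies (8202 tags per 1000000 clean tags, TPM) in Dox+ and 36867 (6308 TPM) in Dox-. The next large subunit genes by Dox+ copies were Rpl13a, with 25315 and 17122 copies, and Rpl17, with 17710 and 19360. The order of these 2 genes was turned in Dox-, where Rpl17 was the higher. In the small subunit Rps2, which lines the channel where mRNA enters, had 31446 and 17846 copies. Rps18, a head protein, had 22838 and 16177 copies. At the other end, Rpl4, a protein of the exit tunnel wall, had 343 copies in Dox+ and 549 in Dox-. Rps4x, encoded on the X chromosome, had 873 and 1959, and its full tag is not in the annotation. Whether low counts reflect a low mRNA level or poor detection of the tag was not tested. Across the 66 genes, copies in the 2 libraries had a Spearman correlation of 0.93, which is a description over genes that share both libraries.

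**Figure D1:**
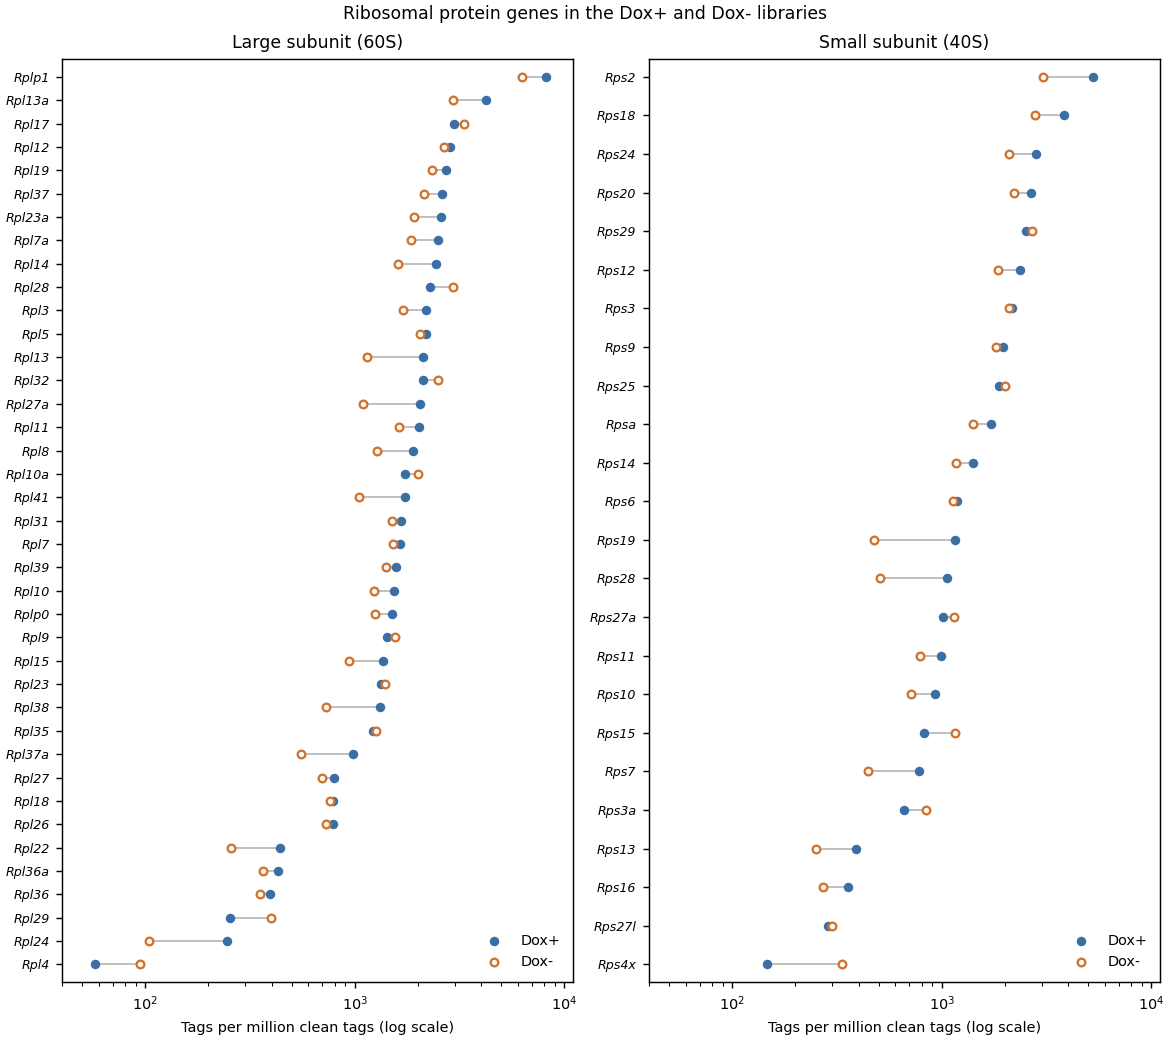
Level of 63 ribosomal protein genes with at least 200 combined copies, in tags per 1000000 clean tags on a log axis, for the large (left) and small (right) subunit, with 1 filled point for the Dox+ library and 1 open point for the Dox- library. The open point lies left of the filled one for 30 of the 39 large and 17 of the 24 small subunit genes drawn, and Rplp1 is highest with 8202 and 6308 TPM.

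The lower share in Dox- was spread over most members and over both subunits. The log2 ratio of Dox- over Dox+ had a median of -0.27 over the 66 members, against 0.03 over the 6547 genes with at least 200 copies. The median was -0.24 for the 39 large subunit genes and -0.28 for the 27 small subunit genes, a difference of 0.04. Over members whose tag occurs in no other gene searched, the large subunit had -0.29 and the small subunit -0.12. Of the members, 49 had a ratio below 0, which were 30 of 39 in the large and 19 of 27 in the small subunit. The 95% interval of counting error lay below 0 for 48 members and above 0 for 15, and held 0 for Rpl35, Rpl18 and Rps27l. Over all genes tested, 31.5% had an interval below 0 and 34.8% above 0. The members' deep counts make these intervals narrow, with a median half-width of 0.04 on the log2 scale.

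Fewer members moved far. A gene was called when it had at least 200 combined copies, an FDR below 0.05 in the two-sided test of Audic and Claverie, and a fold of at least 1.5. This test compares these libraries, not the conditions. It called 17 of the 66 members (25.8%), against 29.9% of all genes tested. In Dox-, 14 members were lower (21.2%), against 14.7% of all genes, and 3 were higher (4.55%), against 15.2%. The large subunit had 8 called lower and 2 higher, and the small subunit 6 lower and 1 higher. With an assumed coefficient of variation of 0.2 between samples in place of counting error alone, Rps19 was the only member still called (1.52% of members), against 4.90% of all genes tested (2.66% lower and 2.25% higher).

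**Figure D2:**
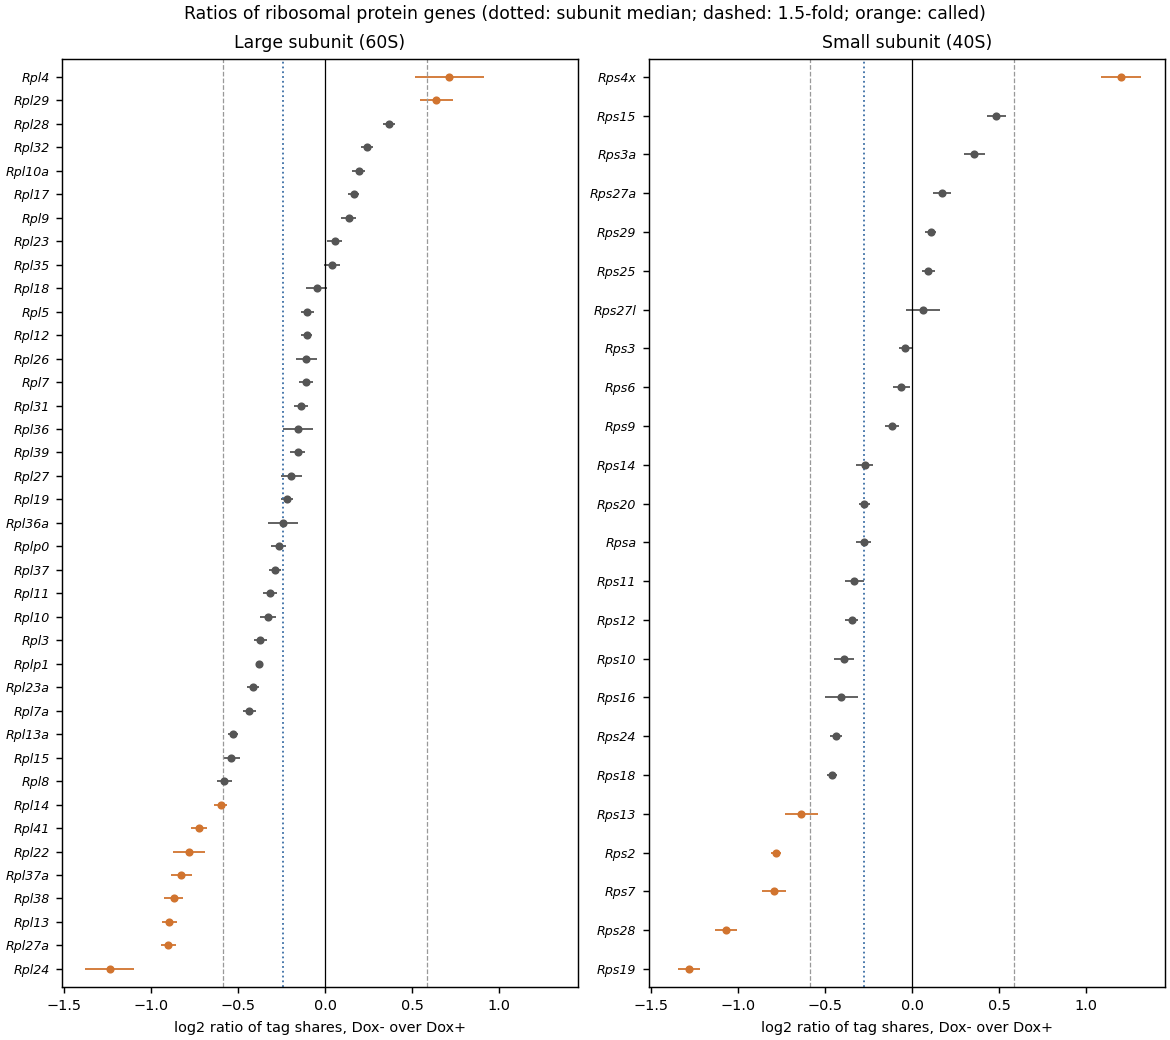
Log2 ratio of tag shares, Dox- over Dox+, of 63 ribosomal protein genes with at least 200 combined copies, large subunit left and small subunit right, with 95% intervals for counting error. Dotted lines mark the subunit medians over all 66 genes (-0.24 and -0.28), dashed lines 1.5-fold and orange the 16 called genes among those drawn, of which Rps19 is lowest at -1.29 and Rps4x highest, with 873 copies in Dox+ and 1959 in Dox-.

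The members with the lowest ratios came from both subunits. Rps19, a head protein needed for 18S rRNA maturation and mutated in Diamond-Blackfan anaemia, fell from 6941 copies in Dox+ to 2779 in Dox-, which was 2.44-fold (95% interval 2.33 to 2.55). Its count can include the pseudogenes that carry the same tag. Rps28, of the mRNA exit side, fell from 6335 to 2945 copies (2.10-fold, 2.01 to 2.19). In the large subunit, Rpl24, which forms a bridge to the small subunit and is mutated in the belly spot and tail mouse, fell from 1466 to 606 copies (2.36-fold, 2.15 to 2.60). In all, 4 members were lower by 2-fold or more, these 3 among them. Over the 14 head proteins tested the median log2 ratio was -0.37, with 3 called lower and none higher. Over the 12 body proteins it was -0.28, with 3 called lower and 1 higher. For comparison, 21.2% of the 66 members and 14.7% of all genes tested were called lower. Called higher were 4.55% of members and 15.2% of all genes.

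Of the other members called lower, Rps2 had most copies and fell by 0.78 on the log2 scale. Rps7, a body protein that takes part in 18S rRNA processing, went from 4630 to 2603 copies (log2 ratio -0.80), and Rps13, another body protein, from 2341 to 1470 (-0.64). Large subunit genes made up the rest. Rpl27a went from 12223 to 6382 copies (-0.90) and Rpl13 from 12677 to 6642 (-0.90). Rpl38, whose loss disturbs axial patterning in the mouse, went from 7929 to 4233 (-0.87). The zinc-binding protein Rpl37a went from 5863 to 3226 copies (-0.83). Rpl22, which T cell development requires, went from 2635 to 1493 (-0.79). Rpl41, the shortest ribosomal protein, went from 10364 to 6108 (-0.73), and Rpl14 from 14554 to 9376 (-0.60). Rpl14 and Rps13 were the members just inside the 1.5-fold threshold, and Rpl8 (-0.58) and Rpl15 (-0.54) those just outside it.

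Of the 17 members with a ratio above 0, 3 were called higher in Dox-. Rps4x rose from 873 to 1959 copies, 2.30-fold (95% interval 2.12 to 2.49), and it was the member with the largest ratio. Rpl4 rose from 343 to 549 copies (1.64-fold, 1.43 to 1.88). Rpl29, a small basic protein without a bacterial counterpart, rose from 1521 to 2313 (1.56-fold, 1.46 to 1.66). Its tag occurs at 39 genome positions and in 8 other genes or pseudogenes. All 3 had few copies for a ribosomal protein, and Rpl4 and Rps4x were the members with the fewest copies in Dox+ among the 66. The next in order, Rps15, near the decoding site, had 4937 and 6742 copies (0.48) and was not called.

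The net difference of the summed level was -19506 TPM. It was the sum of -23293 TPM over the 52 members that were lower and 3787 TPM over the 18 that were higher. The 5 members that were lower by most TPM, with Rps2, Rplp1, Rpl13a and Rps18 among them, carried 38.2% of the net difference, and the first 10 carried 59.6%. Rps2 alone differed by -2200 TPM and Rplp1 by -1894. On the other side, Rpl28 differed by 659 TPM and Rpl32 by 384. Without the 5 members with most copies in Dox+, the others held 9.06% of clean tags in Dox+ and 7.86% in Dox-.

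**Figure D3:**
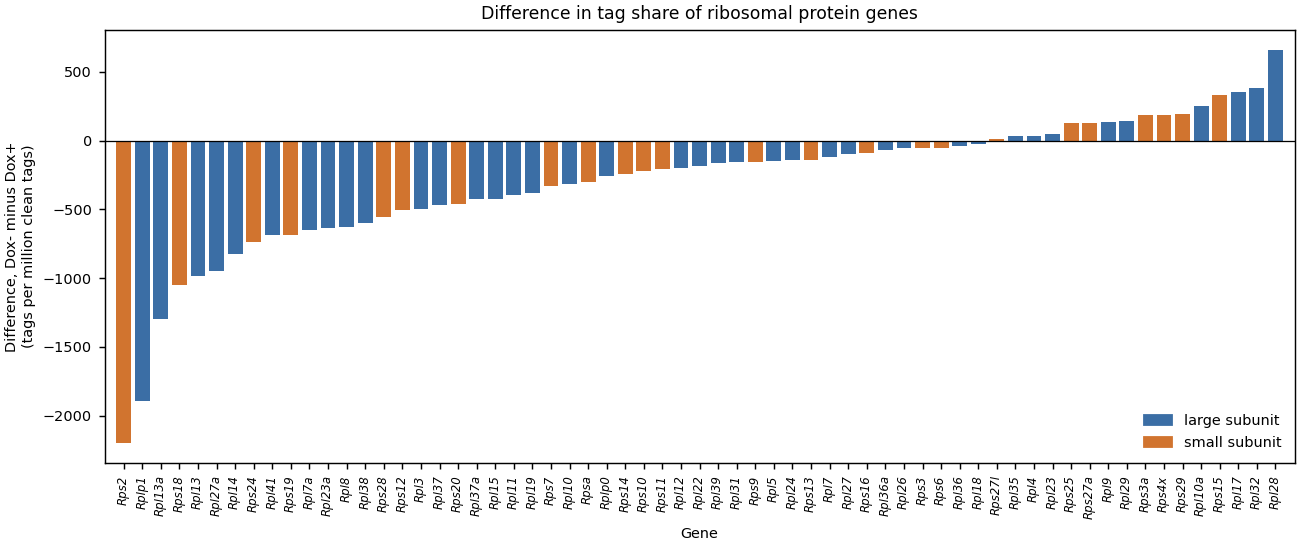
Difference in tags per 1000000 clean tags, Dox- minus Dox+, for 63 ribosomal protein genes with at least 200 combined copies, ordered from lowest to highest, with large subunit genes in blue and small subunit genes in orange. Bars reach from -2200 for Rps2 to 659 for Rpl28, and both subunits occur along the whole order.

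The spread between members was much wider than counting error and narrower than that of other genes. The log2 ratios had an SD of 0.47 over the 66 members (0.42 in the large and 0.53 in the small subunit), where counting alone gives 0.03. Their quartiles were -0.53 and 0.02. The SD of the 6480 other genes with at least 200 copies and a ratio was 0.73. At 10000 or more combined copies the SD was 0.35 over 46 members and 0.80 over 64 other genes. Copies in Dox+ and the log2 ratio had a Spearman correlation of -0.13 over the 66 members, and transcript length and the ratio one of 0.16 over 65. The 36 members whose tag occurs in no other gene searched had a median ratio of -0.26, and the 27 with a shared tag had -0.33. The subunits went opposite ways in this split. In the small subunit the median was -0.12 over the 15 members without a shared tag and -0.46 over the 11 with one. In the large subunit it was -0.29 over 21 and -0.17 over 16.

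Medians below 0 were found for every group of members formed by place in the ribosome, from -0.04 to -0.37. The highest was that of the 3 proteins of mRNA entry and decoding tested (-0.04), with Rps2 called lower, and the lowest that of the 40S head. The 3 stalk proteins tested, Rplp0, Rplp1 and Rpl12, had a median of -0.27 and none was called. Rpl5 and Rpl11, which bind 5S rRNA and can restrain Mdm2, had ratios of -0.10 and -0.32. The 9 exit tunnel proteins had a median of -0.14, with Rpl4 called higher and Rpl22 lower. Proteins with a bacterial counterpart (31 tested) had a median of -0.27 and an SD of 0.35, with 3 called lower and 1 higher. Those without one (35 tested) had a median of -0.29 and an SD of 0.55, with 11 called lower and 2 higher. All genes tested had 14.7% called lower and 15.2% higher. The 5 ribosomal proteins outside the naming rule had a median of 0.15, and none was called. Fau, the precursor of Rps30, had 12485 and 13560 copies (0.15). The scaffold protein Gnb2l1 (Rack1) had 11866 and 9588 (-0.27).

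The start of the transcript was examined because most ribosomal protein mRNAs are of the TOP class. Windows of 30 bases, 15 on each side of the annotated start, were taken from RefSeq on GRCm38.p6 for the 50 members with an entry. A run of at least 7 consecutive C or T, read in the direction of the transcript, was found in 54.0% of these members. It was found in 21.3% of 27025 genes with an entry. Runs on either side of the start were counted. The windows of genes called in each direction, with and without such a run, are shown 5′ to 3′ with the longest pyrimidine run in capitals.
Rpl27a: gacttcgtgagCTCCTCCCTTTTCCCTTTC
Rpl14: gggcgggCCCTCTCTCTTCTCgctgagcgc
Rpl24: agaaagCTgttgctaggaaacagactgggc
Rpl4: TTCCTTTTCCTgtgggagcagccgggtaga
Rps4x: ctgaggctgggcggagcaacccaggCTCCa
These are chr7:109519180-109519209 (plus strand), chr9:120571502-120571531 (plus), chr16:55966260-55966289 (plus), chr9:64173372-64173401 (plus) and chrX:102189377-102189406 (minus). The run was 19 bases long in Rpl27a and 14 in Rpl14, both lower in Dox-, and spanned the annotated start in both. In Rpl4, which was higher, the run was 11 bases long and lay wholly before the annotated start. It was 2 bases in Rpl24, which was lower, and 4 in Rps4x, which was higher. A window depends on where the annotation places the start, and a missing run says only that these letters are not in it.

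Other genes of the translation machinery did not all move with the ribosomal proteins. Of the 7 genes listed as elongation factors, 4 had a ratio below 0 and 3 above it. Eef1a1, which brings aminoacyl-tRNA to the ribosome, had 22294 and 15942 copies (-0.45), Eef2, the translocation factor, 17844 and 11685 (-0.58), and Eef1b2, an exchange factor of Eef1a, 10366 and 7247 (-0.48). Eif5a had 8196 and 5675 copies (-0.50). Above 0 were Eef1g, a subunit of the same exchange complex, with 7313 and 7818 copies (0.13), Eef1d (0.41) and Eef1e1 (0.35). Eef1e1 was listed by its name only. The median of the list was -0.45 and its mean -0.16, and none was called. The 19 other TOP mRNAs, which share members with the factor lists, had a median of -0.16, with 3 called lower and 1 higher. Tpt1, the most abundant of them, had 31264 and 28822 copies (-0.08). The 34 initiation factors had a median of 0.06. Of these, 6 were called lower, among them Eif3g, with 1680 and 818 copies, and Eif3b (-0.84). Another 4 were called higher, among them Eif4g1 (0.82) and Eif3e (0.80). All genes tested had 14.7% called lower and 15.2% higher.

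The lists of genes that make or control ribosomes had medians from 0.01 to 0.20. Over 39 genes of ribosome biogenesis the median was 0.03, with 5 called higher and 2 lower. The box C/D protein Nop58 rose from 250 to 440 copies (0.85) and Nolc1 from 177 to 310 (0.84), and Rrp9 fell from 247 to 135 (-0.84). Npm1, the most abundant, had 4272 and 5372 copies (0.37). Of 7 RNA polymerase I genes (median 0.20), Taf1d rose from 75 to 144 copies. Among 13 mTOR and MYC regulators (median 0.01), Mycn rose from 14 to 299 copies. Larp1, which binds TOP mRNAs, rose from 562 to 910 (0.73), and Tsc2, an inhibitor of mTOR signalling, from 341 to 501 (0.59). The ribosomal proteins of mitochondria, made in the cytosol but used in another ribosome, summed to 3842 TPM in Dox+ and 3848 in Dox-. Their median was 0.05 over 63 genes, with 5 called higher and 7 lower. The shares called over all genes tested were 15.2% higher and 14.7% lower. Mrpl42 rose from 68 to 260 copies (1.97) and Mrpl19 fell from 277 to 78 (-1.79).

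**Figure D4:**
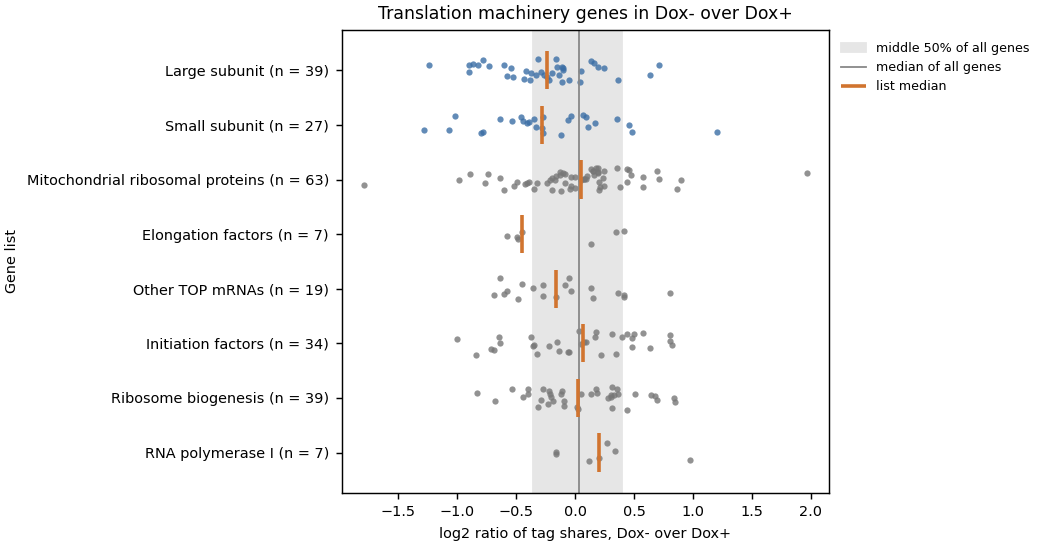
Log2 ratio of tag shares, Dox- over Dox+, with 1 point for each gene of at least 200 combined copies, by gene list, with list medians as orange bars, the median of all genes as a grey line and their middle 50% as a grey band. The medians of the large (-0.24) and small subunit (-0.28) and of the elongation factors (-0.45) lie below the line, and that of the mitochondrial ribosomal proteins (0.05) lies near it.

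Vegfa, the repressed gene, had 247 copies in Dox+ and 125 in Dox- (log2 ratio -0.95). Markers of uterine cell types also differed between the libraries. All 9 epithelial markers had a ratio above 0, 5 of them called higher, with Krt8 lowest at 0.19 and a sum of 1161 TPM in Dox+ and 2099 in Dox-. The sum of 8 stromal markers was 2099 TPM in Dox+ and 1416 in Dox-, with 4 called lower and Lum called higher. All 7 smooth muscle markers had a ratio below 0, 2 of them called lower, with sums of 7812 and 5608 TPM. The sums of 6 endothelial markers were 179 and 128 TPM, those of 6 leukocyte markers 53.8 and 77.2, and those of 3 red cell markers 7.85 and 21.6, with Hbb-b2 at 0 in Dox+. The part of these cell types in the ribosomal protein values was not tested, and in whole uterus fewer cells of a type and less RNA per cell cannot be told apart.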

How the data were processed

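Total RNA of 3 uteri per group at G2.5 was pooled (6 µg per library) and measured by DGE, with 1 library for Dox+ and 1 for Dox-. Before counting, the authors discarded tags of adaptor alone, of low quality or seen a single time, aligned the rest to mouse reference mRNAs (mm9; CASAVA is named in the submitters' processing notes) and deposited, for each gene, the count of unambiguous tags in each library. The deposited TPM values are those counts per 1000000 clean tags, with no correction for length, and a count of 0 is written as 0.01. The authors' ratios, log2 ratios, P-values and FDR were not used.

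The members and the gene lists were chosen with earlier results of these data known. Clean tags per library, 5985925 and 5844314, were recovered from the counts and TPM values, which they matched within 0.005 TPM. Ratios of Dox- over Dox+ were taken per clean tag, with exact (Clopper-Pearson) 95% intervals for counting error, which do not cover PCR duplicates or animals. A gene was called at 200 or more combined copies, a fold of 1.5 and an FDR of 0.05 over all 14678 genes in the two-sided test of Audic and Claverie, with the study's filters on copies and FDR. Alternatives used edgeR 4.0.16 and DESeq2 1.42.0 (R 4.3.3) for scaling or an assumed variation. The test was checked on simulated counts. Named genes were the 3 with most copies of each subunit, the 5 highest and 5 lowest ratios, every called member, paralogs, members under 200 copies and, in other lists, the genes with most copies and the largest called ratios. Genes given only for a role or a threshold were added. Tags of 21 bases, the last CATG and the 17 bases after it, were read from 1 GENCODE vM1 protein-coding transcript per gene on NCBIM37. Start windows were read from RefSeq. Python 3.11.15, scipy 1.17.1 and pandas 2.3.3 were used. A few members and related genes are not reported here by name. They are counted in sums, medians and calls but not drawn in the plots that label genes.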

Additional observations from a re-analysis of the deposited data

How the results depend on the processing

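The median log2 ratio of the ribosomal protein genes stayed below 0 under every alternative tried, from -0.31 to -0.24, and the medians of the large (-0.29 to -0.20) and small subunit (-0.31 to -0.12) did so as well. The values of -0.29 and -0.12 came from members whose tag occurs in no other gene searched, against -0.24 and -0.28 over all. This alternative was chosen after seeing the data. Scaling was changed to TMM, to DESeq2 size factors or to the table's own sum, and the combined minimum to 1000 copies or none. Each of these, Fisher's exact test and an absolute log2 ratio above 0.5 gave 16 to 21 called members against 17. Over all genes, the minimum of 1000 copies gave 424 calls and no minimum 4121. The other settings gave 1945 to 2399, against 1955. At the minimum of 1000 copies, 24.6% of members and 26.6% of other genes were called. With an assumed coefficient of variation of 0.2, edgeR's exact test called 1 member in all, 1 lower and 0 higher, and 321 of all genes (4.90%), 174 lower and 147 higher. As a share of the tags counted in the table, members held 15.6% in Dox+ and 13.3% in Dox-. Without the 5 members with most copies these shares of clean tags were 9.06% and 7.86%, and the ratio of Dox- to Dox+ was 0.867 against 0.831. No paired analysis was possible because each group is 1 library. Variation between animals cannot be estimated. Counts of genes whose tag is shared or lies at several genome positions may include their copies.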

Other observations

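2 genes outside the naming rule were chosen after their values were seen. Rn18s, the 18S rRNA of the small subunit, had 30650 copies in Dox+ and 44719 in Dox- (log2 ratio 0.58, 95% interval 0.56 to 0.60) in libraries made from poly(A)-selected RNA. Rps4y2, listed in RefSeq with the synonym Rps4l, had 52 copies in Dox+ and 180 in Dox- (1.83, 1.37 to 2.30).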
